A study of Mus musculus with 8 samples.

Results

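The genes described here are the 13 protein-coding genes of the mouse mitochondrial genome, taken as the rows of the deposited expression table whose locus lies on the sequence named MT. They are 13 of the 34745 genes in the table. They encode 7 subunits of complex I (mt-Nd1 to mt-Nd6 and mt-Nd4l), 1 of complex III (mt-Cytb), 3 of complex IV (mt-Co1, mt-Co2 and mt-Co3) and 2 of complex V (mt-Atp6 and mt-Atp8). The ribosomal and transfer RNA genes of the same genome were not analysed here. Messenger RNA was isolated from mouse hearts and sequenced as bulk libraries in a study of the ubiquitin ligase TRIM21 in autoimmune myocarditis. The design had 3 groups, all carrying the strain label Balb/c. Trim21 knockout hearts and wild-type hearts from mice with experimental autoimmune myocarditis (EAM), both labelled day 21, gave 3 libraries each, and wild-type hearts labelled as day 0 controls gave 2. Mice with EAM were injected under the skin, at the start and in a boost, with a peptide of the cardiac myosin MyHCα mixed into CFA, an oil adjuvant with killed mycobacteria. The protocol describes controls given CFA and saline, while the labels put the controls at day 0, so time and immunization cannot be told apart between EAM and control. Earlier library names in the same workbook give day 35 for both EAM groups. Hearts of knockout mice free of EAM were not analysed here. Neither the part of the heart taken nor the knockout allele is given in the labels.

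The mitochondrial genome is a small circle held in many copies per cell, and heart muscle is among the tissues richest in mitochondria. The nuclear-encoded polymerase POLRMT, with TFAM and TFB2M, transcribes both strands into long precursors, from which most messenger RNAs are released when the transfer RNAs between them are cut out. The poly(A) polymerase MTPAP then adds tails, and the LRPPRC and SLIRP complex stabilises the transcripts. Complexes I, III and IV of the respiratory chain pump protons, and complex V uses the gradient to make ATP; complex II has no mitochondrially encoded subunit. In human cells the light-strand transcript ND6 carries little or no poly(A) tail, unlike the other mitochondrial messenger RNAs.

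The libraries held 14390000 to 16930000 fragments, as inferred from the steps of the lowest values. Trim21 was at 0 to 0.0481 FPKM (fragments scaled by exon length and by sequencing depth) in the knockout libraries, and at no less than 1.98 FPKM in every wild-type library. Cardiomyocyte markers were abundant in all libraries, with Mb at the 15th place of the table. Some libraries stood apart. The sum of 5 atrial markers was 3949.6 to 5339 FPKM in knockout replicates 1 and 2 and in EAM wild type 2, against 165 to 768 FPKM in the other 5 libraries. Those 5 were not alike. Myl7 was at 48.6 and 169 FPKM in EAM wild type 1 and 3, against 0.621 to 1.20 FPKM in knockout 3 and day 0. Sln, Myl4 and Nppa were likewise higher in EAM wild type 1 and 3, and Bmp10 was at 0 FPKM in all 5. Another library, EAM wild type 3, stood apart in the mitochondrial transcripts themselves, as described below, and each comparison that involves it is given with and without it. The labels do not tie libraries to animals. The earlier names carry animal numbers, which differ within each group and between the EAM groups. Those names also give another day for EAM than the labels, so the p-values reflect the spread among the libraries and not necessarily among animals.

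The mitochondrial transcripts filled the top of the expression table. The 7 highest genes of all 34745 were mt-Co1, mt-Co2, mt-Co3, mt-Cytb, mt-Atp8, mt-Nd1 and mt-Nd4. The 13 genes took 60.5%, 62.1% and 63.2% of all FPKM in the EAM knockout libraries, 62.1%, 59.2% and 52.3% in the EAM wild-type libraries, and 58.5% and 59.4% in the day 0 libraries. EAM wild type 3 was the lowest of the 8, and the knockout libraries all lay above both controls. Weighted by exon length, which approximates the share of fragments, they took 40.4% to 43.6% in the knockout, 33.6% to 41.8% in EAM wild type and 36.5% to 39.1% at day 0.

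Complex IV genes were the most abundant. mt-Co1, which encodes the catalytic core subunit of cytochrome c oxidase, had 129809, 122121 and 139819 FPKM in the EAM knockout hearts, 127266, 113343 and 119600 FPKM in the EAM wild-type hearts, and 106072 and 115431 FPKM in the day 0 hearts. All 3 knockout libraries lay above both day 0 libraries and overlapped the EAM wild type. mt-Co2, whose product takes electrons from cytochrome c, had 46798, 46018 and 52023 FPKM in the knockout, 49969.5, 43359 and 34897 FPKM in EAM wild type, and 44173 and 46739.6 FPKM at day 0. The lowest library was EAM wild type 3, and the others overlapped. mt-Co3, the other core subunit, had 42511, 40241 and 45318 FPKM in the knockout, 41344, 35804 and 48888 FPKM in EAM wild type, and 41238 and 45049 FPKM at day 0. Here EAM wild type 3 was the highest library of all, and EAM wild type 2 the lowest.

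mt-Cytb, the mitochondrially encoded subunit of the bc1 complex, had 27611, 30059 and 31484 FPKM in the knockout, 32333.5, 28162.5 and 17579 FPKM in EAM wild type, and 29038 and 29947 FPKM at day 0. The groups overlapped, and EAM wild type 3 fell outside the other 7 libraries. mt-Atp8, a small subunit of the membrane part of ATP synthase, had 25551, 33916 and 31513 FPKM in the knockout, 31144, 28677 and 10704.5 FPKM in EAM wild type, and 28831.5 and 30809.9 FPKM at day 0. mt-Atp6, which forms part of the proton channel of ATP synthase, had 4779.65, 5608 and 5923 FPKM in the knockout, 5821, 4988 and 2678 FPKM in EAM wild type, and 5740.5 and 6080.3 FPKM at day 0. For both, EAM wild type 3 was far below every other library, and knockout 1 was the next lowest.

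The complex I genes spanned the widest range of levels. mt-Nd1 had 27461, 26139 and 24942 FPKM in the knockout, 27594.5, 24524 and 18894 FPKM in EAM wild type, and 24659.9 and 25561.5 FPKM at day 0. mt-Nd4 had 21252, 23058 and 22786 FPKM in the knockout, 23545, 21375 and 14608 FPKM in EAM wild type, and 19768 and 22073.5 FPKM at day 0. mt-Nd1 encodes the subunit next to the ubiquinone site and mt-Nd4 one of the antiporter-like proton-pumping subunits, and both were lowest in EAM wild type 3 with overlap among the rest. mt-Nd4l had 15319.7, 18858 and 17198 FPKM in the knockout, 18286, 17168 and 8094 FPKM in EAM wild type, and 16394 and 16018 FPKM at day 0. mt-Nd2, another antiporter-like subunit, had 13976, 15647 and 14035.5 FPKM in the knockout, 14338, 13288 and 7583 FPKM in EAM wild type, and 12749.8 and 13421 FPKM at day 0. The knockout libraries lay above both day 0 libraries for mt-Nd2, and EAM wild type 3 was again the lowest for both genes.

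The 3 remaining complex I genes were the least abundant of their complex. mt-Nd5, the largest antiporter-like subunit, had 5021, 6816 and 5869 FPKM in the knockout, 6814, 5937 and 1979.6 FPKM in EAM wild type, and 6287 and 6098 FPKM at day 0. mt-Nd3, whose product carries a loop that switches exposure between active and resting complex I, had 3642, 3652 and 4373 FPKM in the knockout, 3655, 3058 and 3188 FPKM in EAM wild type, and 3827 and 4239 FPKM at day 0. The EAM wild-type libraries all lay below both day 0 libraries for mt-Nd3, and the knockout overlapped both groups. mt-Nd6, the only gene of the 13 on the minus strand of the annotation, had 172, 224 and 186 FPKM in the knockout, 219, 200.3 and 88.0 FPKM in EAM wild type, and 233.5 and 242 FPKM at day 0. Every EAM library of either genotype was below both day 0 libraries for mt-Nd6.

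By mean FPKM over the 8 libraries the order ran from mt-Co1 (121683) through mt-Co2 (45497), mt-Co3 (42549), mt-Cytb (28277), mt-Atp8 (27643), mt-Nd1 (24972), mt-Nd4 (21058), mt-Nd4l (15917), mt-Nd2 (13129.8), mt-Nd5 (5603), mt-Atp6 (5202) and mt-Nd3 (3704) to mt-Nd6 (196). mt-Co1 stood 2.67 times above mt-Co2 and 622 times above mt-Nd6. Only 4 neighbouring pairs had ranges that did not overlap over the 8 libraries, namely mt-Co1 and mt-Co2, mt-Co3 and mt-Cytb, mt-Nd2 and mt-Nd5, and mt-Nd3 and mt-Nd6. mt-Nd1 over mt-Nd4, mt-Nd4 over mt-Nd4l and mt-Nd4l over mt-Nd2 kept their order in 8 of 8 libraries although their ranges overlapped. mt-Cytb was above mt-Atp8 in 4 of 8 libraries, so their order was not settled. Counting error is small at these levels: 664 fragments lay behind the lowest value, mt-Nd6 in EAM wild type 3, which gives a Poisson error of 3.88%, and 3536242 behind the highest, mt-Co1 in knockout 3.

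**Figure D1:**
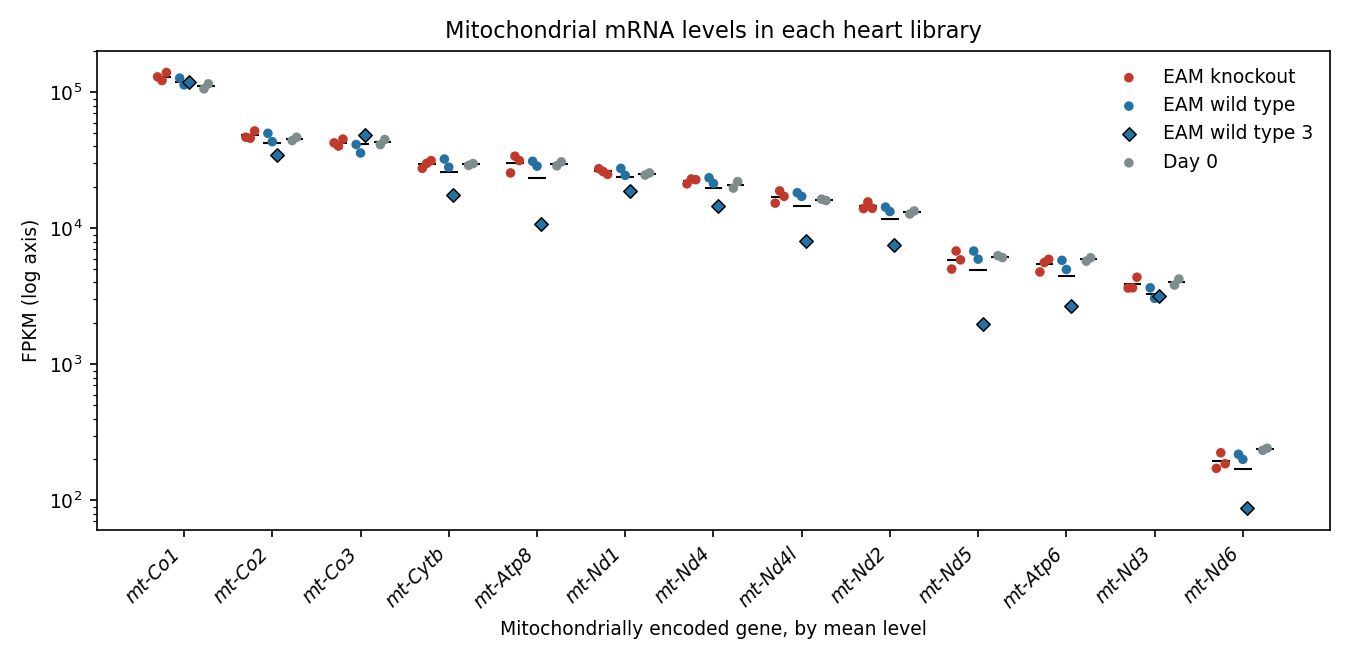
FPKM of each mitochondrially encoded gene (log axis) in each library, with genes ordered by mean level and a short line at each group mean; points are EAM knockout (red), EAM wild type (blue, replicate 3 as a diamond) and day 0 (grey). Levels span 622-fold in the mean between mt-Co1 and mt-Nd6, and EAM wild type 3 lies below the other 7 libraries for 10 of the 13 genes.

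Neighbouring genes differ in listed level even where they share bases. The shared bases are shown because fragments there cannot be assigned to 1 gene. mt-Atp8 and mt-Atp6 overlap by 43 bases and sit on 1 bicistronic messenger RNA, as do mt-Nd4l and mt-Nd4, which overlap by 7 bases. The last 60 bases of mt-Atp8 (MT:7910-7969, plus strand) and the first 60 of mt-Atp6 (MT:7927-7986, plus strand) follow, then the last 60 of mt-Nd4l (MT:10114-10173) and the first 60 of mt-Nd4 (MT:10167-10226), both on the plus strand. All are mm10 sequence from the GENCODE M21 transcripts, written 5′ to 3′, with the bases common to the pair in capitals.
mt-Atp8 last: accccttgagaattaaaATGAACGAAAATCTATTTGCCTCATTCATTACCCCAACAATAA
mt-Atp6 first: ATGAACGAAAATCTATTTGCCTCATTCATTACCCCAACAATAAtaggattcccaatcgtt
mt-Nd4l last: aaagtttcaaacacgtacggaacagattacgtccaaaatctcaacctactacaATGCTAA
mt-Nd4 first: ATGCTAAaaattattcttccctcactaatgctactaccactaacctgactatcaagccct
The listed level of mt-Atp8 was 5.32 to 6.05 times that of mt-Atp6 in the knockout, 4.0 to 5.75 times in EAM wild type and 5.02 to 5.07 times at day 0. The level of mt-Nd4 was 1.22 to 1.39 times that of mt-Nd4l in the knockout, 1.25 to 1.80 times in EAM wild type and 1.21 to 1.38 times at day 0. In both pairs EAM wild type 3 held the extreme value, the lowest ratio of mt-Atp8 to mt-Atp6 and the highest of mt-Nd4 to mt-Nd4l. These ratios depend on how fragments were divided with the nuclear copies described below, which mt-Atp6, mt-Nd4l and mt-Nd4 have and mt-Atp8 lacks. With the copies added, the means were 27643 FPKM for mt-Atp8 and 11312 FPKM for mt-Atp6. They were 23294 FPKM for mt-Nd4 and 20138 FPKM for mt-Nd4l.

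mt-Nd5 and mt-Nd6 run toward each other on opposite strands and overlap by 14 bases at their ends, MT:13536-13565 on the plus strand and MT:13552-13581 on the minus strand. The overlap is in capitals, and each is the reverse complement of the other.
mt-Nd5 last: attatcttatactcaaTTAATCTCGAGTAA
mt-Nd6 last: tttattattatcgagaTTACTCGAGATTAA
mt-Nd5 exceeded mt-Nd6 by 29.2 to 31.5 times in the knockout, 22.5 to 31.2 times in EAM wild type and 25.2 to 26.9 times at day 0. The sources used here do not say whether counting was by strand, so whether transcripts antisense to mt-Nd6 were counted with it is not known.

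The genes also differ in how their reading frames end. In mt-Co3, mt-Nd4 and mt-Cytb the annotated gene ends in a lone T, which the poly(A) tail completes to a stop codon, whereas the other 10 hold a whole TAA or TAG. The last 30 bases of the 3 genes of complex IV and of mt-Nd1, mt-Nd4 and mt-Cytb are given with the bases of the stop codon in capitals, all on the plus strand, at MT:6843-6872, MT:7667-7696, MT:9361-9390, MT:3678-3707, MT:11515-11544 and MT:15259-15288.
mt-Co1 end: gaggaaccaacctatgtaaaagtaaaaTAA
mt-Co2 end: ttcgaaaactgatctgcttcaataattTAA
mt-Co3 end: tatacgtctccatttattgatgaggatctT
mt-Nd1 end: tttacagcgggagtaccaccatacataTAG
mt-Nd4 end: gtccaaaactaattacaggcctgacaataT
mt-Cytb end: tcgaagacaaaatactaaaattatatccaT
The 3 genes with an incomplete stop codon ranked 3, 4 and 7 of the 13 by mean FPKM, among the upper 7 places.

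For 7 of the 13 genes the annotation holds a near-identical copy in the nuclear genome, and the listed values of those 7 depend on how fragments were divided. The copies lie together on chromosome 1, in the 4663 bases of 1:24611535-24616197 (mm10, minus strand), and are annotated as unprocessed pseudogenes, an insertion of mitochondrial DNA into a chromosome. The copies of mt-Co2 (Gm28661), mt-Co3 (Gm28437), mt-Atp6 (Gm10925) and mt-Nd4l (Gm10222) have no difference from the mitochondrial gene over their annotated length, and Gm28439 none from bases 1 to 876 of mt-Nd4. Gm28438 differs from mt-Nd3 at 1 base of 345, T3C, counted from the first base of the gene with the mitochondrial base first. Gm29216 covers bases 1054 to 1545 of mt-Co1 and has 6 differences, T1056A, C1057T, A1059G, A1060G, C1062A and A1066T, all within its first bases. Those stretches are printed with the differing bases in capitals: MT:9459-9498 (plus) beside 1:24613080-24613119 (minus), then MT:6381-6420 (plus) beside 1:24616158-24616197 (minus).
mt-Nd3 beside copy: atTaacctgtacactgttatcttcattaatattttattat
Gm28438 copy: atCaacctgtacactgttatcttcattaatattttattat
mt-Co1 beside copy: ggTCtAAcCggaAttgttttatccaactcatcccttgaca
Gm29216 copy: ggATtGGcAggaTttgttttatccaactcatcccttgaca
No copy is annotated for mt-Nd1, mt-Nd2, mt-Atp8, mt-Nd5, mt-Nd6 or mt-Cytb in that stretch.

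The copies were listed at high levels in every library. Gm29216 had 19138 to 23274 FPKM in the knockout, 16216 to 22782 FPKM in EAM wild type and 16871 to 19523.5 FPKM at day 0, which placed it eighth in the table. Of the fragments listed for mt-Atp6 and Gm10925 together, the copy held 56.1%, 55.5% and 54.0% in the knockout, 53.9%, 52.9% and 58.7% in EAM wild type, and 50.7% and 52.5% at day 0. It thus took the larger part of that pair in every library. For the other pairs the copy's share ran from 20.1% to 22.0% for mt-Nd4l, 17.4% to 20.1% for mt-Co3, 16.4% to 19.3% for mt-Nd3, 14.1% to 16.2% for mt-Co2, 9.08% to 10.2% for mt-Nd4 and 4.36% to 5.72% for mt-Co1. Where the bases do not differ, the listed levels cannot tell a nuclear transcript from a mitochondrial one.

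Adding each copy to its gene raised the mean of mt-Atp6 2.17-fold, to 11312 FPKM, and moved it from place 11 to place 10 of the 13, above mt-Nd5. mt-Nd4l rose 1.27-fold, mt-Co3 1.23-fold, mt-Nd3 1.21-fold, mt-Co2 1.18-fold, mt-Nd4 1.11-fold and mt-Co1 1.05-fold, and no other place changed. The 13 genes and 7 copies together took 69.7% to 72.6% of all FPKM in the knockout, 61.6% to 71.2% in EAM wild type and 66.6% to 68.1% at day 0.

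**Figure D2:**
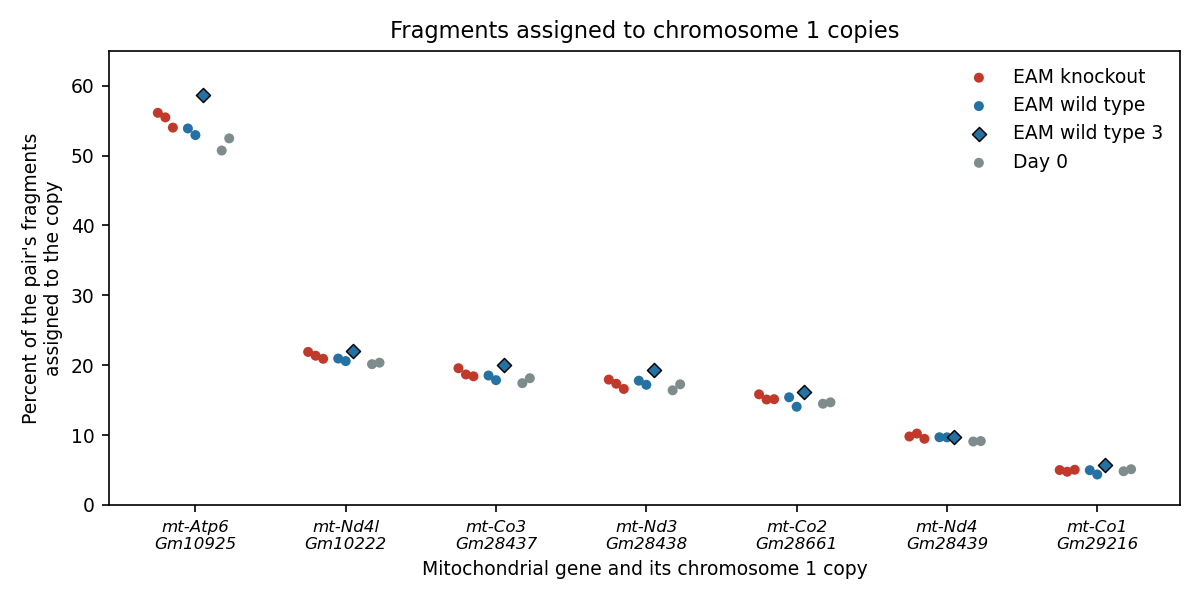
Percent of each pair's fragments that the table assigns to the chromosome 1 copy (vertical axis), for the 7 mitochondrial genes with a copy, by library; points are EAM knockout (red), EAM wild type (blue, replicate 3 as a diamond) and day 0 (grey). Gm10925 holds 50.7% to 58.7% of its pair with mt-Atp6, while Gm29216 holds 4.36% to 5.72% of its pair with mt-Co1.

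EAM wild type 3 differed from every other library in which mitochondrial transcripts it held. Relative to the mean of the other 7 libraries, its FPKM were 0.323 times for mt-Nd5, 0.356 for mt-Atp8, 0.417 for mt-Nd6, 0.475 for mt-Nd4l, 0.481 for mt-Atp6, 0.545 for mt-Nd2, 0.590 for mt-Cytb, 0.665 for mt-Nd4, 0.731 for mt-Nd1 and 0.742 for mt-Co2. These 10 genes were below the range of the other 7 libraries. mt-Nd3 at 0.844 times and mt-Co1 at 0.980 times were inside it, and mt-Co3 at 1.17 times was above it. The unevenness shows in the pairs of libraries: the SD over the 13 genes of the log2 ratio between 2 libraries was 0.05 to 0.21 for the 21 pairs without EAM wild type 3, and 0.45 to 0.63 for the 7 pairs with it. The coefficient of variation of mt-Nd5 was 28.1% over all 8 libraries and 10.1% over the other 7, and that of mt-Atp8 26.3% and 8.85%, while that of mt-Co1 was 8.69% and 9.34%.

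Seen as a composition, complex IV genes made up 70.4% of the mitochondrial FPKM in EAM wild type 3 and 56.0% to 60.2% in the other 7 libraries. mt-Co1 alone held 41.4%, against 31.3% to 35.7%, and mt-Co3 held 16.9%, against 10.5% to 12.5%. Complex V genes held 4.63%, against 8.33% to 10.6%, and complex I genes 18.8%, against 22.6% to 25.4%. The pattern did not follow the order of the genes on the genome: mt-Co3 was high while mt-Atp8 and mt-Atp6, just before it, were low. Over the 13 genes the ratio had a Spearman correlation of 0.19 with gene length, 0.33 with GC content, -0.37 with position and 0.50 with level, given as a description of genes that share 1 library. The chromosome 1 copies showed the same order, with Gm28437 (mt-Co3) at 1.31 times the other libraries, Gm29216 (mt-Co1) at 1.16, Gm28438 (mt-Nd3) at 0.970, Gm28661 (mt-Co2) at 0.814, Gm28439 (mt-Nd4) at 0.671, Gm10925 (mt-Atp6) at 0.590 and Gm10222 (mt-Nd4l) at 0.506. Fragments of the copies cannot be told from those of their genes over most bases, so this shared order is not separate evidence. The depth of EAM wild type 3, 14540000 fragments, was within the range of the others. Its sum of 10 cardiomyocyte markers, 19403 FPKM, was the highest of the EAM libraries. The list was not uniform there: Mb, at 6451 FPKM, was the highest of the 8 libraries, and Myh6 and Ttn, at 1904 and 5.81 FPKM, were the lowest. The part of RNA quality or library preparation in this pattern was not tested.

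**Figure D3:**
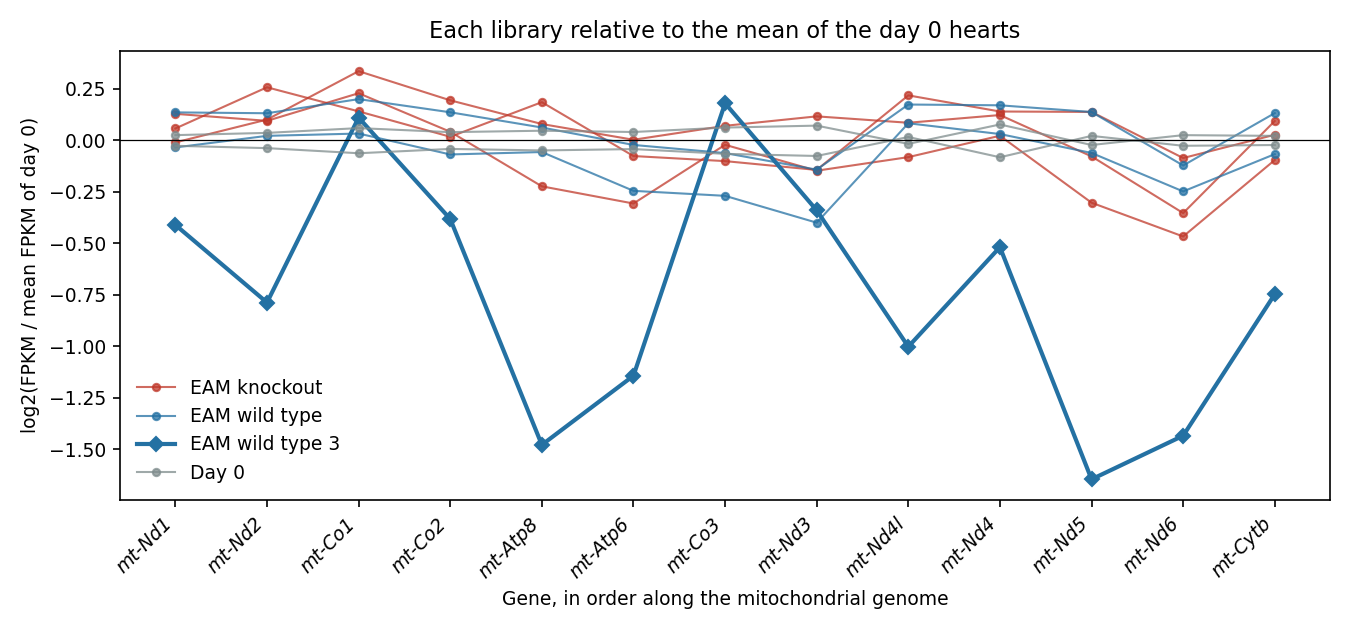
log2 ratio of each library's FPKM to the mean of the 2 day 0 libraries (vertical axis), with the 13 genes in order along the mitochondrial genome; lines are EAM knockout (red), EAM wild type (blue, replicate 3 thick with diamonds) and day 0 (grey). EAM wild type 3 is below the others for 10 genes and above them for mt-Co3, and the other 7 libraries stay close together.

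The first comparison asked whether loss of Trim21 changed mitochondrial transcripts in hearts with EAM. No mitochondrially encoded gene passed the test between EAM knockout and EAM wild type. The count was 0 of 13 at a limma adjusted p under 0.05 over all 10393 genes tested, where 3.09% of all genes passed, and 0 of 13 at an unadjusted p under 0.05, against 2075 of all genes. All 13 differences were positive, with a median log2 difference of 0.24 and a range of 0.03 to 0.50, beside a median of -0.12 over all genes. With equal FPKM sums 12 were positive. With quantile normalization 9 were positive, 2 were negative and 2 were at 0. Scaling by median ratios brought the median over all genes to 0.00 and that of the 13 to 0.39. No gene had groups that did not overlap, where 25.2% of all genes did. In bulk hearts fewer cells of a type and less RNA per cell cannot be told apart, and this holds for every comparison here.

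The largest point estimates were those of mt-Atp8 and mt-Nd5. mt-Atp8 averaged 30327 ± 4307 FPKM in the knockout and 23509 ± 11157 FPKM in EAM wild type (SD, n = 3 each), a log2 difference of 0.50 with a 95% interval of -0.28 to 1.29. mt-Atp6 differed by 0.34 (interval -0.23 to 0.91) and mt-Nd5 by 0.44 (interval -0.45 to 1.33). These intervals include 0 and leave room for a change of either sign. mt-Co1 averaged 130583 ± 8874 FPKM in the knockout and 120070.0 ± 6973 FPKM in EAM wild type, a log2 difference of 0.12 with an interval of -0.08 to 0.32. mt-Co2 differed by 0.19 (interval -0.11 to 0.49) and mt-Co3 by 0.03 (interval -0.24 to 0.31). The interval of mt-Co1 was the narrowest of the 13. mt-Cytb differed by 0.24 (interval -0.21 to 0.68). Among the other complex I genes, the differences were 0.36 for mt-Nd2, 0.32 for mt-Nd4l, 0.30 for mt-Nd6, 0.24 for mt-Nd3, 0.20 for mt-Nd4 and 0.16 for mt-Nd1. mt-Nd3 had the lowest adjusted p of the 13, 0.327 in limma.

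Without EAM wild type 3 the one-sided picture went away. Of the 13 differences 8 were positive and 5 negative, with a median of 0.01 and a range of -0.12 to 0.21, and none passed (lowest limma adjusted p = 0.422, mt-Nd3). mt-Atp8 then differed by 0.01 (interval -0.27 to 0.29), mt-Nd5 by -0.12 (interval -0.43 to 0.19) and mt-Co1 by 0.12 (interval -0.07 to 0.31). Without the 3 libraries high in atrial transcripts, which leaves 1 knockout library and EAM wild type 1 and 3, all 13 were positive with a median of 0.40. EAM wild type 1 and 3 still held some atrial transcripts, such as Myl7, that knockout 3 all but lacked. Marker transcripts of other cell types differed with the genotype. By the same test 3 of 4 tested leukocyte markers (Cd74, Lyz2 and Cd68) were lower in the knockout. So were 3 of 5 fibroblast markers (Dcn, Col3a1 and Lum). The other tested leukocyte marker, the B cell gene Cd79a, was not called and had 1.19, 1.58 and 0.964 FPKM in the knockout, against 0.429, 0.896 and 0.378 FPKM in EAM wild type. The beta-globin gene Hbb-bt was higher in the knockout (65.1 against 11.6 FPKM in the mean, limma adjusted p = 0.00627). Its erythroid list did not follow it, with 2 positive and 2 negative differences and a median of -0.02. The related Hbb-bs, not called, had 47.0 to 62.6 FPKM in the knockout and 77.1 to 148 FPKM in EAM wild type. The histone gene Hist1h4h was lower in the knockout (18.6 against 34.9 FPKM in the mean, limma adjusted p = 0.0164). It comes from a list of transcripts that mostly lack a poly(A) tail, with 3 positive and 2 negative differences. The sum of the leukocyte list, made up mostly of Cd74 and Lyz2, was 242 to 318 FPKM in the knockout and 448 to 622 FPKM in EAM wild type. That of the cardiomyocyte list was 17246 to 18194 FPKM in the knockout and 15310.4 to 19403 FPKM in EAM wild type. Their part in the mitochondrial values was not tested.

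The second comparison set EAM against control in wild-type hearts. No mitochondrially encoded gene passed between EAM wild type and day 0, 0 of 13 where 1.49% of all genes passed. None of the 13 had an unadjusted p under 0.05, against 1514 of all genes. Of the 13 differences 12 were negative and mt-Co1 alone was positive, with a median of -0.23 and a range of -0.60 to 0.12, beside 0.08 over all genes. With median ratios 13 were negative. With quantile normalization 9 were negative, 2 were positive and 2 were at 0. The groups did not overlap for 2 genes, mt-Nd3 and mt-Nd6, where 31.2% of all genes did not overlap.

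mt-Nd6 averaged 169 ± 70.7 FPKM in EAM wild type (SD, n = 3) and 238 ± 6.02 FPKM at day 0 (SD, n = 2), a log2 difference of -0.60 with an interval of -1.36 to 0.17. mt-Nd3 averaged 3300.2 ± 314 FPKM in EAM wild type and 4033 ± 291 FPKM at day 0, a difference of -0.29 (interval -0.61 to 0.02; limma adjusted p = 0.382, the lowest of the 13). Both genes were therefore lower in every EAM wild-type library, by an amount that the test did not separate from the spread. The differences were -0.52 for mt-Nd5, -0.49 for mt-Atp8 and -0.47 for mt-Atp6, each with an interval that includes 0. mt-Co1 differed by 0.12 (interval -0.11 to 0.34), mt-Co2 by -0.10 and mt-Co3 by -0.05. mt-Cytb, the complex III gene, differed by -0.23, and mt-Nd4l, mt-Nd2, mt-Nd4 and mt-Nd1 by -0.25, -0.21, -0.10 and -0.10.

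Most of these negative values rested on EAM wild type 3. Without it 9 differences were positive and 4 negative, with a median of 0.03 and a range of -0.27 to 0.13, and none passed (lowest limma adjusted p = 0.409). The 4 that stayed negative were mt-Nd3 (-0.27), mt-Nd6 (-0.18), mt-Co3 (-0.16) and mt-Atp6 (-0.13). mt-Nd3 was the steadiest of them, at -0.29 with replicate 3 and -0.27 without it. Cd74, Lyz2 and Col3a1 were higher in EAM wild type by the same test. The leukocyte list sum, again mostly Cd74 and Lyz2, was 448 to 622 FPKM in EAM wild type and 191 to 252 FPKM at day 0. That of the atrial list was 389 to 5339 FPKM in EAM wild type and 165 to 207 FPKM at day 0. That of the cardiomyocyte list was 15310.4 to 19403 FPKM in EAM wild type and 19645 to 20327 FPKM at day 0. The part of these cells in the mitochondrial values was not tested.

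The third comparison set the EAM knockout against day 0, with the same day 0 libraries as the second and the same knockout libraries as the first. No mitochondrially encoded gene passed, 0 of 13 where 1.37% of all genes passed. mt-Co1 was the only gene of the 13 with an unadjusted p under 0.05, against 1422 of all genes. It averaged 130583 ± 8874 FPKM in the knockout (SD, n = 3) and 110751 ± 6618 FPKM at day 0 (SD, n = 2), a log2 difference of 0.24 with an interval of 0.01 to 0.46 (limma adjusted p = 0.339). Of the 13 differences 8 were positive and 5 negative, with a median of 0.01 and a range of -0.30 to 0.24, beside -0.03 over all genes. Signs this close to 0 changed with the scaling of the libraries: 6 were positive with equal FPKM sums, 10 with equal sums outside the mitochondrial genome, 9 with median ratios and 2 with quantile normalization. Under quantile normalization 6 were negative and 5 were at 0.

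The groups did not overlap for 3 genes, where 36.5% of all genes did not overlap. mt-Co1 and mt-Nd2 (0.15, interval -0.39 to 0.69) were above day 0 in all 3 knockout libraries, and mt-Nd6 was below it in all 3. mt-Nd6 averaged 194 ± 26.9 FPKM in the knockout and 238 ± 6.02 FPKM at day 0, a difference of -0.30 (interval -1.06 to 0.46). With the spread of EAM wild type 3 removed from the fit, the interval for mt-Nd6 narrowed to -0.60 to 0.00 and that for mt-Co1 to 0.05 to 0.43, and neither passed (limma adjusted p = 0.311 and 0.219). That library was left out for its values of the mitochondrial genes, so such narrowing was built into the choice. With all libraries mt-Nd6 had the lowest difference from day 0 in both EAM groups; without EAM wild type 3, mt-Nd3 was lower in EAM wild type, at -0.27 against -0.18 for mt-Nd6.

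Single marker genes of other cells also differed between the EAM knockout and day 0. Kdr, an endothelial receptor, was higher (32.2 FPKM in the knockout and 15.6 FPKM at day 0 in the mean; limma adjusted p = 0.0247), as was Hbb-bt (65.1 and 15.7 FPKM; limma adjusted p = 0.0211), and the related Hbb-bs was lower (55.1 and 147 FPKM; limma adjusted p = 0.0375). Hba-a1 and Alas2, also on the erythroid list, were not called. The sums of that list overlapped, at 188 to 241 FPKM in the knockout and 210 to 384 FPKM at day 0. The endothelial list summed to 189 to 192 FPKM in the knockout and 134 to 147 FPKM at day 0. The atrial list summed to 298 to 4892 FPKM in the knockout and 165 to 207 FPKM at day 0. The cardiomyocyte list summed to 17246 to 18194 FPKM in the knockout and 19645 to 20327 FPKM at day 0, with no gene called. Their part in the mitochondrial values was not tested.

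**Figure D4:**
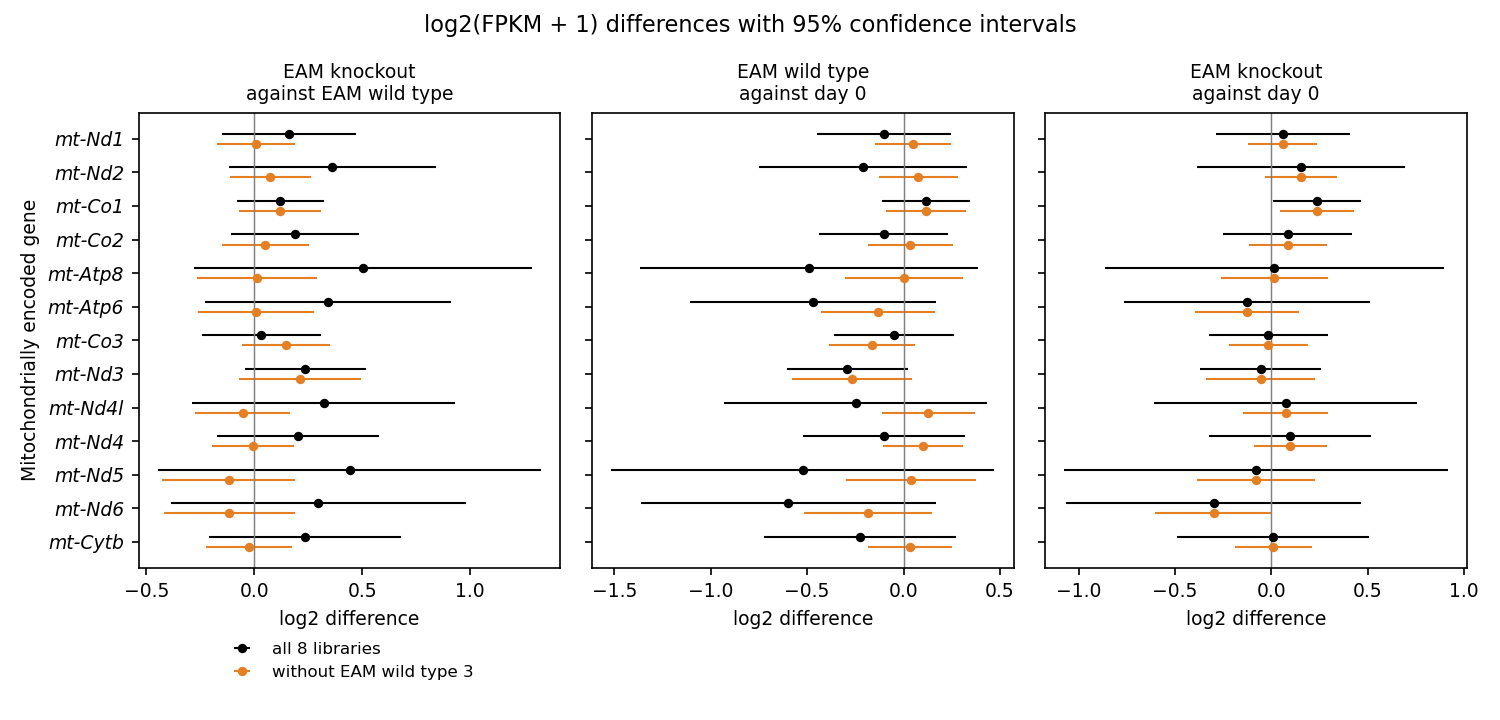
log2(FPKM + 1) difference of each gene (horizontal axis) with its 95% confidence interval from limma, for EAM knockout against EAM wild type, EAM wild type against day 0 and EAM knockout against day 0, from all 8 libraries (black) and without EAM wild type 3 (orange). With all libraries the interval of mt-Co1 in the third panel, 0.01 to 0.46, is the only interval that leaves out 0 before adjustment; without EAM wild type 3 the estimates of mt-Atp8 and mt-Nd5 in the first panel are 0.01 and -0.12, against 0.50 and 0.44, while those of mt-Co3 lie farther from 0 in the first and second panels and none changes in the third.

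A second test asked whether any gene moved differently from the mitochondrial pool as a whole, after scaling each library to the same FPKM sum over the 13 genes. No gene passed in any comparison: 0 of 13 between EAM knockout and EAM wild type (3.47% of all genes passed on this scale), 0 of 13 between EAM wild type and day 0 (1.31%), and 0 of 13 between EAM knockout and day 0 (0.876%). No member had an unadjusted p under 0.05 either, against 2251, 1008 and 985 of all genes. The lowest limma adjusted p were 0.385 for mt-Atp8, 0.566 for mt-Atp6 and 0.754 for mt-Nd6. On this scale mt-Nd6 differed by -0.41 between EAM knockout and day 0 (interval -1.04 to 0.23), and mt-Co1 by 0.13 (interval -0.09 to 0.35). Without EAM wild type 3 the scaled intervals tightened, and mt-Co3 stood at -0.21 (interval -0.32 to -0.09; limma adjusted p = 0.133) and mt-Nd3 at -0.31 (interval -0.51 to -0.11; limma adjusted p = 0.216) between EAM wild type and day 0. Between EAM knockout and day 0 the same setting gave 4 intervals that leave out 0 before adjustment: mt-Nd6 at -0.41 (interval -0.73 to -0.08), mt-Atp6 at -0.23 (interval -0.41 to -0.05), mt-Co3 at -0.12 (interval -0.23 to -0.02) and mt-Co1 at 0.13 (interval 0.04 to 0.22). None of the 4 passed, the lowest limma adjusted p being 0.16 for mt-Co1. EAM wild type 3 was left out for its values of these same genes, so narrower intervals were built into that choice. How many of all genes had an unadjusted p under 0.05 in this setting was not counted.

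The respiratory complexes combine these subunits with nuclear-encoded ones, whose messenger RNAs were far lower. The highest nuclear subunit was Ndufb9 in complex I at a mean of 643 FPKM, Cyc1 in complex III at 615 FPKM, Cox6a2 in complex IV at 2474 FPKM and Atp5b in complex V at 560.2 FPKM. The 13 mitochondrial genes summed to 21.5, 24.6 and 23.4 times the FPKM of 76 nuclear subunits of the 4 complexes in the knockout, 23.3, 22.7 and 14.3 times in EAM wild type, and 18.1 and 17.9 times at day 0. Thus 5 of the 6 EAM libraries were above both day 0 libraries and EAM wild type 3 was below them. The sum of the nuclear subunits was 15112 to 16917 FPKM in the knockout, 14960.1 to 20158 FPKM in EAM wild type and 18743 to 20198 FPKM at day 0, so the EAM libraries other than replicate 3 of the wild type were lower in the denominator. The numerator was 363903 to 395469 FPKM in the knockout and 339013 and 361709 FPKM at day 0. In EAM wild type it was 382328, 339883 and 288780 FPKM. The knockout libraries and EAM wild type 1 were therefore also higher in the numerator than both day 0 libraries.

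By complex, the ratio of mitochondrial to nuclear subunits was highest for complex IV, at 31.1, 33.6 and 33.1 in the knockout, 31.0, 32.2 and 25.0 in EAM wild type, and 25.0 and 24.0 at day 0. Here EAM wild type 3 was at the level of day 0. For complex I the ratio was 20.1, 24.7 and 20.7 in the knockout, 21.8, 22.1 and 10.1 in EAM wild type, and 17.4 and 16.6 at day 0. For mt-Cytb in complex III it was 11.4, 13.4 and 13.4 in the knockout, 14.2, 12.8 and 6.27 in EAM wild type, and 10.6 and 10.7 at day 0. Complex V, with mt-Atp6 and mt-Atp8, had ratios of 9.74, 13.9 and 12.2 in the knockout, 13.4, 11.6 and 3.51 in EAM wild type, and 9.80 and 10.7 at day 0. Knockout libraries therefore lay above day 0 for complexes I, III and IV, and overlapped it for complex V. These sums over chosen genes were not tested.

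**Figure D5:**
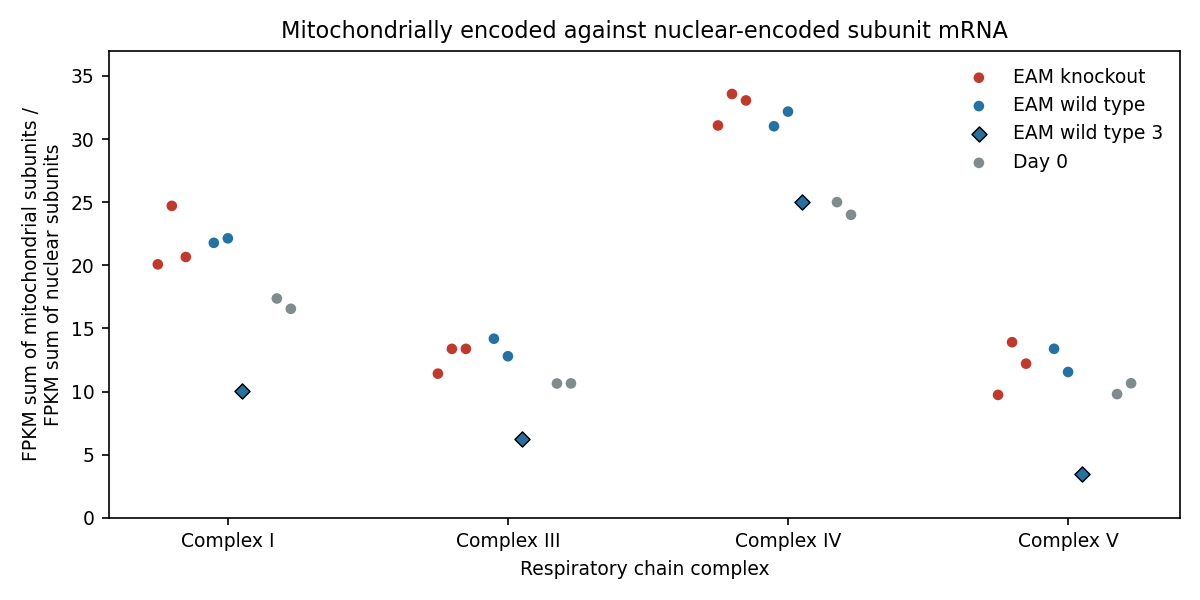
FPKM sum of the mitochondrially encoded subunits divided by the FPKM sum of the nuclear-encoded subunits (vertical axis) for complexes I, III, IV and V, by library; points are EAM knockout (red), EAM wild type (blue, replicate 3 as a diamond) and day 0 (grey). In complex IV the 3 knockout libraries lie at 31.1 to 33.6 and EAM wild type 1 and 2 at 31.0 and 32.2. All of these lie above the day 0 libraries at 24.0 and 25.0, and EAM wild type 3 is the lowest EAM library in every complex.

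The nuclear subunits themselves gave no call. In EAM knockout against day 0, 34 of 36 complex I subunits, 9 of 9 complex III, 13 of 14 complex IV and 16 of 16 tested complex V subunits had negative differences, with medians of -0.26, -0.25, -0.28 and -0.24 beside -0.03 over all genes, and none passed (lowest limma adjusted p = 0.166). In EAM wild type against day 0 the medians were -0.17, -0.20, -0.16 and -0.17 beside 0.08 over all genes, and none passed (lowest limma adjusted p = 0.272). Between EAM knockout and EAM wild type they were -0.11, -0.01, -0.10 and -0.06 beside -0.12 over all genes, and none passed (lowest limma adjusted p = 0.331). Complex II, made of 4 nuclear subunits only, had medians of 0.00, -0.15 and -0.11 in EAM knockout against EAM wild type, EAM wild type against day 0 and EAM knockout against day 0.

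Nuclear genes that make, process and translate mitochondrial RNA also gave no call in any of the 3 comparisons. None passed of 13 tested genes of mitochondrial transcription and replication, 29 of RNA processing and stability, 14 of translation, 17 mitochondrial aminoacyl-tRNA synthetases, 78 mitoribosomal proteins and 12 regulators of mitochondrial biogenesis. The lowest limma adjusted p of any of them was 0.0596, in the mitoribosomal proteins between EAM knockout and EAM wild type, where 20 differences were positive and 58 negative with a median of -0.09. In EAM knockout against day 0 the mitoribosomal median was -0.16, with 68 of 78 negative.

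A few of these genes are named for their known roles, a choice made after their values were seen. Polrmt, the mitochondrial RNA polymerase, had 3.57, 3.48 and 3.42 FPKM in the knockout, 2.57, 4.11 and 3.38 FPKM in EAM wild type, and 4.14 and 4.04 FPKM at day 0. Tfam, which packages the mitochondrial genome and starts its transcription, had 2.98, 3.51 and 3.69 FPKM in the knockout, 3.11, 3.51 and 4.27 FPKM in EAM wild type, and 3.73 and 2.94 FPKM at day 0. Lrpprc, which stabilises mitochondrial messenger RNAs, had 6.49, 8.17 and 7.17 FPKM in the knockout, 5.31, 7.97 and 6.43 FPKM in EAM wild type, and 9.43 and 7.49 FPKM at day 0. The groups overlapped for Tfam and Lrpprc, and Polrmt was below day 0 in every knockout library without passing the test (log2 difference -0.18, interval -0.51 to 0.15; limma adjusted p = 0.625). Mtpap, which adds the poly(A) tails, had 5.09, 4.94 and 5.90 FPKM in the knockout, 5.16, 5.81 and 6.96 FPKM in EAM wild type, and 5.84 and 6.26 FPKM at day 0. Elac2, which cuts the 3′ ends of transfer RNAs, had 3.78, 3.75 and 3.84 FPKM in the knockout, 3.35, 3.99 and 2.81 FPKM in EAM wild type, and 4.06 and 4.05 FPKM at day 0. Among the 8 libraries EAM wild type 3 held the highest Mtpap value and the lowest Elac2 value, and neither gene passed in any comparison. It was also the highest for Tfam and for Slirp, at 2.65 FPKM. For Polrmt, Lrpprc, the translation gene Tufm (23.9 FPKM) and the biogenesis regulator Ppargc1a (3.43 FPKM) it was inside the range of the others. How often this library was extreme over all genes was not counted. The part of these genes in its mitochondrial profile was not tested. All 6 EAM libraries were below both day 0 libraries for Elac2; of all genes, 31.2% did not overlap between EAM wild type and day 0, and 36.5% between EAM knockout and day 0.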

How the data were processed

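The authors deposited FPKM values for 34745 genes in 8 libraries; per the submitters' processing notes the build was mm10 and the tools, listed without roles, were edgeR, StringTie 1.3.3b and HISAT2 2.0.4. The sources used here do not state filters, strandedness or the handling of fragments with several matches. Isolation of messenger RNA is stated in the labels' protocols, the method is not. No column was left unused. Depth, 14390000 to 16930000 fragments, was inferred from genes at steps of 1 fragment, with exon lengths from GENCODE M21 (98.6% of identifiers matched).

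The 10393 genes that reached 1 FPKM in 2 or more libraries entered a limma fit (version 3.58.1, R 4.3.3) of log2(FPKM + 1), trend = TRUE, over all 8 libraries and 3 groups, with Benjamini-Hochberg adjustment and a threshold of 0.05; 5 residual degrees of freedom remained. Fold changes on that scale understate changes of low genes. All 13 members passed the filter. A second fit followed scaling to equal sums of the 13 genes. Groups came from the labels. The fits were tested on simulated data. Shares and ratios were computed in Python 3.11.15 and have no test.

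Members and gene lists were chosen with earlier results of these data known. Members were all named; other genes were named if they were chromosome 1 copies or called members of a list, with exceptions stated. Symbols of the lists were matched by name. Alternatives covered pseudocount, filter, trend, scaling, samples in the fit and libraries left out.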

Additional observations from a re-analysis of the deposited data

How the results depend on the processing

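No mitochondrially encoded gene passed in any of the 3 comparisons on the FPKM scale under any alternative run (lowest limma adjusted p over settings 0.233, 0.242 and 0.201 for EAM knockout against EAM wild type, EAM wild type against day 0 and EAM knockout against day 0). On the scale of the mitochondrial sum the lowest were 0.0275, 0.0573 and 0.16 in that order. The 1 call came with the replicate number of the labels as a block, between EAM knockout and EAM wild type, where 1 gene passed: mt-Atp8 (log2 0.33, SE 0.10, limma adjusted p = 0.0275). Whether the numbers pair the libraries is not settled. Correlations of same-numbered deviations between those groups were -0.09, 0.35 and 0.31, with no differently numbered libraries compared beside them. The earlier names give different animals, which does not show whether same-numbered libraries were prepared together.

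The share of FPKM differed by 4.08 percentage points between EAM knockout and EAM wild type (1.3 to 6.19 with 1 library left out), by -1.07 between EAM wild type and day 0 (-3.18 to 1.72) and by 3.02 between EAM knockout and day 0 (2.38 to 3.74). The last was 4.28 without the 3 libraries high in atrial transcripts. Counting only protein-coding members changes nothing, since all 13 are.

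Of 819 single-gene values under alternatives, 50 changed sign, none of them of a called difference, and the cause was not tested. In EAM knockout against day 0, signs changed under the replicate block for mt-Nd5 (0.20) and mt-Atp6 (0.010); without the atrial libraries for mt-Nd3 (0.12), mt-Nd1 (-0.0095), mt-Co3 (0.072) and mt-Atp6 (0.0037); with equal FPKM sums for mt-Cytb (-0.026) and mt-Atp8 (-0.020); with equal sums outside the mitochondrial genome for mt-Nd3 (0.020) and mt-Co3 (0.060); with median ratios for mt-Co3 (0.016); with quantile normalization for mt-Nd4 (-0.12), mt-Cytb (-0.012), mt-Atp8 (-0.053) and mt-Atp6 (0.00072); and with the copies added, an alternative chosen after seeing the data, for mt-Co3 (0.0039). In EAM wild type against day 0 they changed without the atrial libraries for mt-Co3 (0.061), with median ratios for mt-Co1 (-0.0099) and with quantile normalization for mt-Nd1 (0.066) and mt-Co3 (0.072). In EAM knockout against EAM wild type they changed for mt-Co3 with equal FPKM sums (-0.036) and for mt-Nd4 (-0.12) and mt-Co3 (-0.072) with quantile normalization.

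Leaving out 1 library changed the sign of 20 differences, 13 of them on leaving out EAM wild type 3. Between EAM knockout and EAM wild type the lowest and highest values were -0.12 and 0.77 for mt-Nd5, -0.0053 and 0.34 for mt-Nd4, -0.12 and 0.53 for mt-Nd6, -0.054 and 0.53 for mt-Nd4l, -0.024 and 0.42 for mt-Cytb, and -0.076 and 0.15 for mt-Co3. Between EAM wild type and day 0 they were -0.85 and 0.039 for mt-Nd5, -0.24 and 0.10 for mt-Nd4, -0.46 and 0.13 for mt-Nd4l, -0.38 and 0.078 for mt-Nd2, -0.22 and 0.051 for mt-Nd1, -0.41 and 0.033 for mt-Cytb, -0.22 and 0.035 for mt-Co2, -0.77 and 0.0039 for mt-Atp8, and -0.16 and 0.061 for mt-Co3. Between EAM knockout and day 0 they were -0.19 and 0.031 for mt-Nd5, -0.14 and 0.018 for mt-Nd3, -0.034 and 0.061 for mt-Cytb, -0.079 and 0.048 for mt-Co3, and -0.071 and 0.13 for mt-Atp8. Counting error is at most 3.88%, for mt-Nd6, whose coefficient of variation over the 8 libraries was 25.3%. The values of the 7 genes with a copy depend on how fragments were divided.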
